A study of Mus musculus with 6 samples.

Results

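The genes described here are 10 that megakaryocytes and platelets express: Pf4, Ppbp, Vwf, Gp1ba, Gp1bb, Gp5, Gp9, Gp6, Treml1 and Clec1b. Their probes were found by gene name in the annotation of 6 Agilent whole mouse arrays, the genes themselves having been chosen with earlier results of these data known. They make up 10 of 31791 gene names on the array, with 14 of its 39429 probes. The arrays hold RNA of LSK-SLAM cells, the lineage-negative, c-Kit-positive, Sca-1-positive, CD150-positive and CD48-negative marrow fraction that is enriched for HSC. The cells came from secondary (2T) recipients, 3 arrays of mice reconstituted with WT cells (2T-WT) and 3 of mice reconstituted with p190-B-/- cells (2T-p190-B-/-). Since germline loss of p190-B is lethal before birth, both genotypes were started from fetal liver cells on a C57BL/6J background, WT littermates serving as controls, and mixed with WT competitor marrow before transfer into lethally irradiated congenic mice. Marrow of these primary recipients was then passed to irradiated secondary recipients. The sort given in the labels names no donor marker, so the share of competitor or host cells in it is not known, and the age of the mice is not given in the labels. The study describes the cells as coming from independent 2T mice sorted on separate occasions, without saying which mice or which sort went into which array. The p-values measure the spread between these arrays, and the part of the sort occasion was not tested.

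Megakaryocytes arise from HSC under the action of thrombopoietin and shed platelets, which carry adhesion receptors and granules filled with chemokines and clotting proteins. HSC and megakaryocytes share part of their programme, and Vwf marks a subset of HSC with a bias towards platelets. The members fall into 3 roles. Pf4 and Ppbp encode the CXC chemokines of the platelet alpha-granule. Vwf encodes the adhesive ligand, and Gp1ba, Gp1bb, Gp9 and Gp5 encode the subunits of the glycoprotein Ib-IX-V complex that binds it. Gp6, Clec1b and Treml1 encode the collagen receptor, the podoplanin receptor CLEC-2 and the granule-stored receptor TLT-1.

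GATA1 and ETS factors such as FLI1 are known regulators of megakaryocyte promoters, so the 250 bases before the start of each gene were searched on both strands for the GATA hexamers AGATAA or TGATAA or AGATAG or TGATAG and for the ETS hexamers AGGAAG or CGGAAG, in RefSeq sequence of build GRCm38.p6. Of the 10 members 9 had a promoter in the table used here, all but Vwf. A GATA hexamer was present in 5 of the 9, against 26.5% of all 32851 promoters, and an ETS hexamer in 5 of the 9, against 39.2%. Both kinds were present in 3 of the 9, against 9.21% of all promoters. Gp5 and Gp1ba each held 3 GATA matches, which 1.35% of promoters do. These counts describe the letters in this window, and a match is not a bound site. The promoters of 4 members with different patterns on the arrays are shown 5′ to 3′ on the strand of the gene, with the matches in capitals: Gp5 and Gp1ba, seen above background on 2T-WT arrays only, and Gp1bb and Treml1, seen on every array. They lie at chr16:30310782-30311031 (minus strand), chr11:70638872-70639121 (plus strand), chr16:18622404-18622653 (minus strand) and chr17:48359666-48359915 (plus strand).
Gp5: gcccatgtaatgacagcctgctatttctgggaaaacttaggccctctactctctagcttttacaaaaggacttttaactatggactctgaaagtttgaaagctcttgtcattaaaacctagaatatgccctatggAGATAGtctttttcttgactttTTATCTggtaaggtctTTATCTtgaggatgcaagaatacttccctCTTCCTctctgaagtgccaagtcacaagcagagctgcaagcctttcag
Gp1ba: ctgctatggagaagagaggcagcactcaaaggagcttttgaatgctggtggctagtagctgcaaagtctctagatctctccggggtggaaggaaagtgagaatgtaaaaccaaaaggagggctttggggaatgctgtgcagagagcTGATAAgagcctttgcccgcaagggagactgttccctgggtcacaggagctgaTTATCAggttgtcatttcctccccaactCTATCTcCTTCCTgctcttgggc
Gp1bb: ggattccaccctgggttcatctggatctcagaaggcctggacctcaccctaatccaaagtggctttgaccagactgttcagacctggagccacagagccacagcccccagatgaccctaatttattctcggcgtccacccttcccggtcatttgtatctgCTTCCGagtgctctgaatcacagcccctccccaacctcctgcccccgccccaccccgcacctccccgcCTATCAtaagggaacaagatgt
Treml1: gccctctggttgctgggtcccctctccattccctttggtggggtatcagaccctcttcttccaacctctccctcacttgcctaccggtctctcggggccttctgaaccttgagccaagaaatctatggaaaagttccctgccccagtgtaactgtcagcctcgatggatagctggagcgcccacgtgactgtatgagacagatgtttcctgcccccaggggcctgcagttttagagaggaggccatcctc
In Gp5 the GATA matches began 115, 93 and 77 bases and the ETS match 48 bases before the start of the gene. In Gp1ba they began 104, 51 and 23 bases before it, with the ETS match at 16. Gp1bb held 1 match of each kind, at 22 bases for GATA and 90 for ETS. No match of either kind was found in the Treml1 window. Of the members not shown, Pf4 and Ppbp, also above background on 2T-WT arrays only, held 0 GATA matches. Pf4 held 1 ETS match and Ppbp 0. Gp9, above background on a 2T-p190-B-/- array only, held 0 GATA matches and 1 ETS match. Gp6 and Clec1b, seen on every array, held 1 GATA match and 0 ETS matches each. A link between the matches and the array patterns was not tested.

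The signal of a spot is a background-corrected brightness. Here its log2 was taken relative to the 75th percentile of the array, so that 0 is a spot as bright as that percentile. The 75th percentile ran from 53.9 to 227 in 2T-WT and from 252 to 385 in 2T-p190-B-/-. The arrays lie on 3 slides, and slide 2 alone holds both genotypes (2T-WT replicates 2 and 3, 2T-p190-B-/- replicates 1 and 2). Arhgap5, which encodes p190-B, has 1 probe, detected well above background in 0 of 3 arrays of 2T-WT and in 1 of 3 of 2T-p190-B-/-, so it gives no check of the genotypes. Of the sorting markers, the probe of Slamf1, which encodes CD150, was well above background on 0 of 6 arrays, that of Kit on 5 and that of Ly6a, which encodes Sca-1, on all 6. Differences are 2T-p190-B-/- minus 2T-WT from limma over 25188 probes well above background on at least 3 arrays, and 0 of these (0%) had an adjusted p under 0.05, while 1655 (6.57%) had an unadjusted one. The median difference over all of them was −0.33, and 60.8% were below 0.

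Some of the megakaryocyte genes gave a signal in every sorted sample and the others on few arrays. Vwf, Gp1bb, Gp6, Treml1 and Clec1b, 5 of the 10 genes, had at least 1 probe well above background on every array. Pf4, Ppbp, Gp1ba, Gp5 and Gp9 did so on 1 or 2 arrays only. By probes, 7 of 14 were well above background on all 6 arrays, against 35% of all probes, and 8 of 14 on at least 3 arrays, against 63.9%. A single Clec1b probe was above it on no array, where 16.8% of all probes were.

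**Figure D1:**
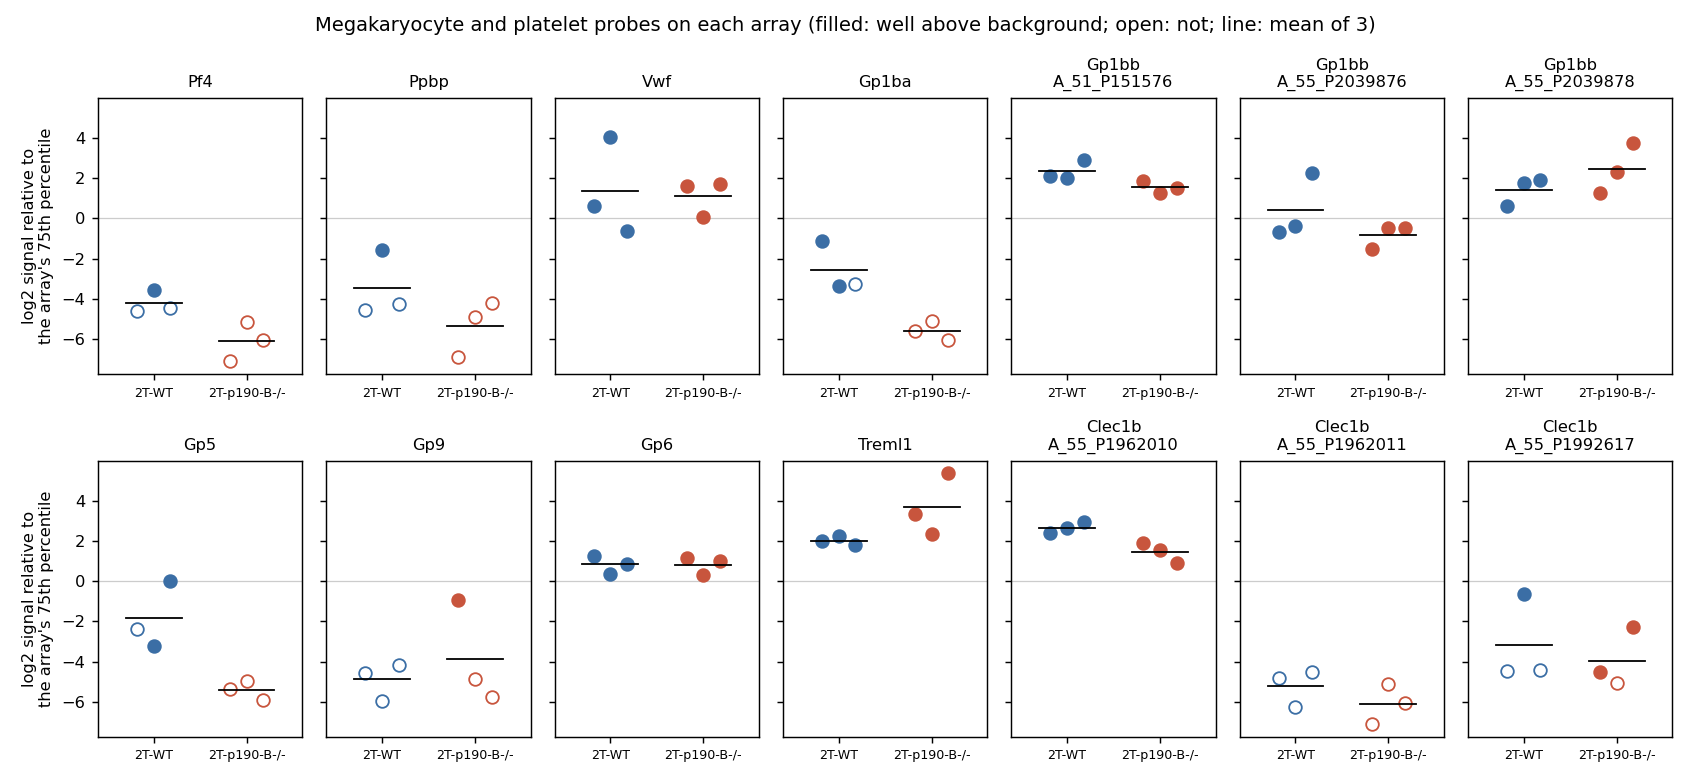
Log2 signal of the 14 probes relative to the 75th percentile of each array (vertical axis) in 2T-WT (blue) and 2T-p190-B-/- (red), with replicates 1, 2 and 3 from left to right. Filled points are well above background, open points are not, and lines are means of 3 arrays. Pf4, Ppbp, Gp1ba, Gp5 and Gp9 have filled points on 1 or 2 arrays, while Vwf, Gp6, Treml1 and all 3 Gp1bb probes have 6.

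The 2T-WT arrays showed 4 of the genes that no 2T-p190-B-/- array did. Of the 14 probes, 2T-WT replicates 1, 2 and 3 had 8, 12 and 8 well above background, while the 2T-p190-B-/- replicates had 9, 7 and 8. Over all probes the shares were 48.5%, 66.6% and 50.7% in 2T-WT and 73.2%, 53.0% and 64.3% in 2T-p190-B-/-. One probe of 14 is 7.14%. On 2T-WT replicate 3 and 2T-p190-B-/- replicates 2 and 3 the members were therefore within 1 probe of the share of all probes. For 2T-p190-B-/- replicate 3 the shares were 57.14% and 64.27%. The probes of Pf4, Ppbp, Gp1ba and Gp5, 4 of 14, were above background on 1 or more 2T-WT arrays and on no 2T-p190-B-/- array, a pattern of 4.53% of all probes. The reverse was seen for Gp9 alone, 1 of 14, against 11% of all probes. 2T-WT replicate 2 took part in all 4 of the former. Without it the count was 2, Gp1ba and Gp5, against 2.3% of all probes, and within slide 2 it was 4, against 4.74%. Without 2T-p190-B-/- replicate 1, the array that carries Gp9, the reverse count was 0, against 6.47%. The 2T-WT count there was still 4, but against a larger share of all probes, 9.21%. Without 2T-WT replicate 2 the reverse count was 2, against 20.8%, as many as the 2T-WT count in that setting.

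**Figure D2:**
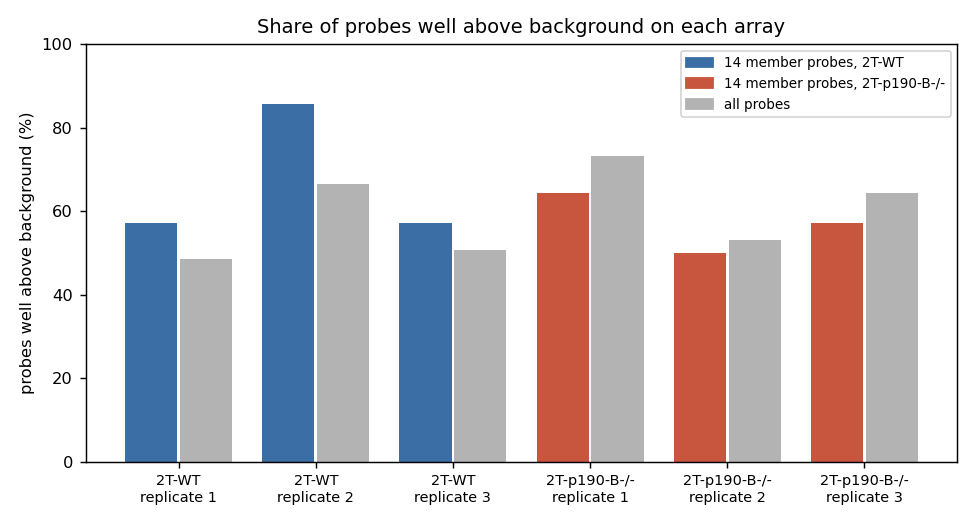
Percentage of probes well above background (vertical axis) on each of the 6 arrays, for the 14 megakaryocyte and platelet probes (2T-WT in blue, 2T-p190-B-/- in red) and for all 39429 probes (grey). The coloured bar is higher than the grey one on the 3 2T-WT arrays, 85.7% against 66.6% on replicate 2, and lower on the 3 2T-p190-B-/- arrays.

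The platelet chemokines were near background on most arrays. Pf4, or CXCL4, is among the most abundant proteins of the platelet granule and is a standard marker of the lineage. Its probe, at chr5:91202275-91202334 of build mm9, was well above background on 2T-WT replicate 2 alone. The log2 signal was −4.59, −3.58 and −4.44 in 2T-WT and −7.11, −5.17 and −6.04 in 2T-p190-B-/-. All 2T-WT values lie above all 2T-p190-B-/- values, but 5 of the 6 are at background and have no order. On the same scale the dimmest signal still called above background by the scanner software was −4.03, −5.47 and −3.52 for 2T-WT replicates and −6.42, −4.42 and −5.23 for 2T-p190-B-/- replicates. With 1 array measured no fold is given. Ppbp, the precursor of the neutrophil-attracting chemokine CXCL7, lies next to Pf4 on chromosome 5, its probe at chr5:91198970-91199029. It too was above background on 2T-WT replicate 2 alone, at −1.58, against −4.57 and −4.25 in the rest of 2T-WT and −6.90, −4.88 and −4.21 in 2T-p190-B-/-. The groups overlapped, and here too no fold is given.

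Vwf was present on every array at levels that varied more between 2T-WT arrays than between genotypes. The protein is the large multimer that tethers platelets to injured vessel walls, and endothelial cells make it as well as megakaryocytes. At its probe (chr6:125636551-125636610) the log2 signal was 0.60, 4.03 and −0.60 in 2T-WT and 1.61, 0.09 and 1.71 in 2T-p190-B-/-. 2T-WT replicate 2 was the brightest array and 2T-WT replicate 3 the dimmest. The difference was −0.21 (standard error 1.22, 95% interval −3.01 to 2.59, adjusted p = 0.964 from limma). Leaving out 2T-WT replicate 2 turned it to 1.14 and leaving out 2T-p190-B-/- replicate 2 to 0.32.

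Of the receptor complex for Vwf, 3 of 4 subunits did not reach the test. Gp1ba encodes the chain that contacts the Vwf protein. Its probe (chr11:70455461-70455520) read −1.10, −3.37 and −3.24 in 2T-WT, above background on replicates 1 and 2, and −5.61, −5.10 and −6.04 in 2T-p190-B-/-, above it on none. The scaled values of the groups did not overlap, but only 2 of the 6 were above background. The undetected values have no order, and before scaling 2T-WT replicate 3 (5.72) was dimmer than 2T-p190-B-/- replicates 1 (7.90) and 2 (9.34). For a fold, the limits above replaced dimmer 2T-p190-B-/- values, and 2T-WT replicate 3 kept its measured value. Gp1ba was then 5.73-fold lower in 2T-p190-B-/-, with no test, and 3.44-fold without 2T-WT replicate 1. This is no strict bound, since an undetected spot can lie above the limit of its array (2T-WT replicate 3, −3.24 against −3.52). Gp5 is the subunit that thrombin cleaves. At chr16:30308347-30308406 its log2 signal was −2.38, −3.21 and 0.02 in 2T-WT, above background on replicates 2 and 3, and −5.37, −4.96 and −5.90 in 2T-p190-B-/-, above it on none. These scaled values did not overlap either, with 2T-WT replicate 1 and all 2T-p190-B-/- values undetected. By the same estimate, with 2T-WT replicate 1 at its measured value, Gp5 was 8.89-fold lower. The fold was 4.64 without 2T-WT replicate 3 and 14.2 without 2T-WT replicate 2. Gp9, which holds the complex together at the platelet surface, went the other way on 1 array. Its probe (chr6:87729650-87729709) read −4.55, −5.95 and −4.16 in 2T-WT and −0.94, −4.87 and −5.74 in 2T-p190-B-/-, with 2T-p190-B-/- replicate 1 the one array above background. The other 2 2T-p190-B-/- values lie within the 2T-WT range. Of the 6 member probes not tested, Pf4, Gp1ba and Gp5 had groups that did not overlap, against 13.2% of all probes not tested. All 3 were lower in 2T-p190-B-/-, and 12.3% of all probes not tested were lower without overlap, so most such probes go this way. Each of the 3 had undetected values in both groups, which have no order. The part of the scaling between arrays was not tested.

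Gp1bb, the small chain linked to Gp1ba by disulphide bonds, has 3 probes that did not go one way. They lie on the minus strand of chromosome 16, the last 610 bases from the first. Along that strand the order is A_55_P2039878 (chr16:18621717-18621776), A_55_P2039876 (chr16:18621535-18621594) and A_51_P151576 (chr16:18621107-18621166). The array annotation gives A_55_P2039878 a different RefSeq transcript from the other Gp1bb probes. In the RefSeq gene table Gp1bb overlaps Septin5 on this chromosome, and transcripts that run through both are known, so signal of the 2 genes may not be separable. Clec1b also has 3 probes, in the order A_55_P1962010 (chr6:129350113-129350172), A_55_P1992617 (chr6:129353604-129353663) and A_55_P1962011 (chr6:129355286-129355345). Of these probes 3 are shown in lower case, 5′ to 3′, since the probes of these 2 genes gave unlike readings.
Gp1bb A_51_P151576: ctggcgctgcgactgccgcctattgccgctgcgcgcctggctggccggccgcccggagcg
Clec1b A_55_P1962010: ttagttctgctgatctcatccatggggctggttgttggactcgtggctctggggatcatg
Clec1b A_55_P1992617: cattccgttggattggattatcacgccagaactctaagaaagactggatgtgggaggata
The Gp1bb sequence has 80% G and C, against a median of 41.7% over all probes, and the Clec1b sequences have 53.3% and 45%. Probes of the members above background on all 6 arrays had 41.7% to 80% G and C and the others 35% to 50%; the part of base composition in detection was not tested.

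At the Gp1bb probe A_51_P151576 the log2 signal was 2.11, 2.02 and 2.90 in 2T-WT and 1.85, 1.25 and 1.52 in 2T-p190-B-/-. The groups did not overlap, 2T-WT being above, and limma gave −0.80 for the difference (standard error 0.67, adjusted p = 0.693). At A_55_P2039876 the values were −0.65, −0.39 and 2.28 in 2T-WT and −1.51, −0.50 and −0.46 in 2T-p190-B-/-. Its groups overlapped, and the difference of −1.24 (adjusted p = 0.671 from limma) fell to −0.31 without 2T-WT replicate 3. The first probe along the strand, A_55_P2039878, was higher in 2T-p190-B-/- by 1.02 (adjusted p = 0.695 from limma). It read 0.60, 1.76 and 1.92 in 2T-WT and 1.26, 2.31 and 3.77 in 2T-p190-B-/-. Within slide 2 its difference was −0.051, and without 2T-p190-B-/- replicate 3 it was 0.36. No direction can therefore be given for Gp1bb as a gene.

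Treml1 had the largest difference of the 8 member probes tested, with higher values in 2T-p190-B-/-. Its product, TLT-1, moves from the alpha-granule to the surface of activated platelets and binds fibrinogen. The probe (chr17:48506365-48506424) read 1.98, 2.27 and 1.82 in 2T-WT and 3.36, 2.33 and 5.37 in 2T-p190-B-/-. All 2T-p190-B-/- arrays lie above the 2T-WT arrays, replicate 2 by less than the spread of the 2T-WT arrays. The difference was 1.66 (standard error 0.89, 95% interval −0.39 to 3.72, adjusted p = 0.637 from limma), which does not pass the test. Its size turned on 2T-p190-B-/- replicate 3, without which it was 0.82, and within slide 2 it was 0.80.

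Gp6 was nearly level between the genotypes. It is the platelet receptor for collagen and signals through the Fc receptor gamma chain. At its probe (chr7:4320351-4320410) the values were 1.27, 0.38 and 0.87 in 2T-WT and 1.14, 0.31 and 1.01 in 2T-p190-B-/-, which interleave. The difference was −0.02 (standard error 0.68, 95% interval −1.58 to 1.54, adjusted p = 0.995 from limma). With 3 arrays a group the differences inside that interval cannot be told apart. The SD between arrays was 0.45 in 2T-WT and 0.44 in 2T-p190-B-/-.

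Clec1b had a difference below 0 at both of its probes tested, without overlap at 1 of them. CLEC-2 binds podoplanin on lymphatic endothelium and stroma. A_55_P1962010 read 2.39, 2.66 and 2.97 in 2T-WT and 1.92, 1.55 and 0.88 in 2T-p190-B-/-, without overlap. The difference was −1.22 (standard error 0.67, 95% interval −2.77 to 0.33, adjusted p = 0.637 from limma) and lay between −1.45 and −0.93 when each array was left out in turn. By the t-test that the methods name, unadjusted and with a 2-fold or larger difference, it was the 1 member probe of 8 to pass, against 6.41% of all probes tested and 4.1% in this direction, and it did not pass after Benjamini-Hochberg adjustment. The groups overlapped at the other probe tested. A_55_P1992617, 3491 bases further along, was above background on 2T-WT replicate 2 and 2T-p190-B-/- replicates 1 and 3, and its difference of −0.79 (adjusted p = 0.844 from limma) was −2.26 within slide 2, −1.66 with normexp background correction and 0.47 without 2T-WT replicate 2. The third, 5173 bases from the first, was above background on no array, with values of −6.25 to −4.51 in 2T-WT and −7.11 to −5.11 in 2T-p190-B-/-.

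**Figure D3:**
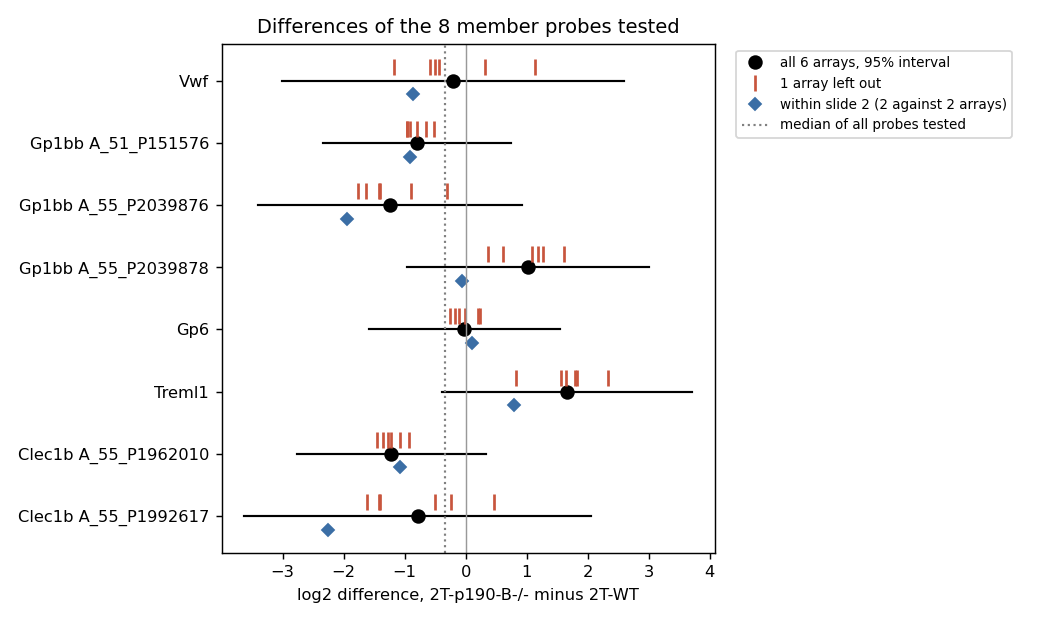
Log2 difference, 2T-p190-B-/- minus 2T-WT (horizontal axis), of the 8 member probes tested, with the 95% interval over 6 arrays (black), the values with 1 array left out (red ticks) and the value within slide 2 (blue diamonds). Each interval spans 0, and the ticks lie on both sides of 0 for Vwf, Gp6 and Clec1b A_55_P1992617.

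Over the 8 probes tested, 6 were below 0 and 2 above, with 0 past an adjusted p of 0.05 and 0 past an unadjusted one, both by limma. The groups did not overlap for 3 of 8 probes (Gp1bb A_51_P151576 and Clec1b A_55_P1962010 with 2T-WT above, Treml1 with 2T-p190-B-/- above), against 16.3% of all probes tested. In the lower direction this was 2 of 8 against 11.8%, and in the higher direction 1 of 8 against 4.53%. With 3 against 3 an exact permutation test (two-sided) of such a probe reaches p = 0.1, which is its minimum. With each of the 5 genes tested represented by its brightest probe, the median difference was −0.21, close to the −0.33 of all probes. Of these genes 4 of 5 were below 0, against 60.8% of all probes tested. The 4 include Gp6 at −0.02 and Gp1bb, for which no direction can be given. The count was 3 with quantile normalization, against 54.1% of all probes, and 2 with normexp background correction, against 69.2%. The sign of the median of the 5 genes changed with the arrays used. It ran from −0.49 without 2T-p190-B-/- replicate 3 to 1.14 without 2T-WT replicate 2, and was 0.39 with normexp background correction. The median pooled SD between arrays of a group was 1.06 for the 8 probes and 1.06 for all probes tested. The highest array among the 8 probes was 2T-WT replicate 3 for 3, 2T-WT replicate 2 and 2T-p190-B-/- replicate 3 for 2 each and 2T-WT replicate 1 for 1.

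The transcription factors that drive the lineage did not pass the test in either direction. Of 12 listed, 8 could be tested, of which 5 had differences below 0 and 3 above, with a median difference of −0.45. Of these, 0 had an adjusted p under 0.05 by limma (1 unadjusted). Over all probes tested, 60.8% were below 0 and 6.57% had an unadjusted p under 0.05 by limma. Gata1, the factor that binds the GATA hexamers above, read −1.37, 2.18 and −2.33 in 2T-WT and −4.42, −2.09 and −2.78 in 2T-p190-B-/-. Its 2T-WT replicate 2 stands apart, as it did for Vwf, and the difference was −2.59 (adjusted p = 0.637 from limma). The Gata1 probe was above background on 2 2T-WT arrays and 3 2T-p190-B-/- arrays. Gfi1b, a repressor needed for megakaryocytes and red cells, read 0.23, −0.05 and 1.67 in 2T-WT and −1.08, −1.88 and −0.92 in 2T-p190-B-/-. This was the 1 factor of 8 whose groups did not overlap, where 16.3% of all probes tested do so. The difference of −1.91 did not pass (adjusted p = 0.637 from limma). Zfpm1, the GATA1 cofactor FOG1, differed by 2.46 the other way, with overlap (adjusted p = 0.637 from limma). The probe of Fli1, the ETS factor of the lineage, was above background on no array.

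Receptors and signalling genes of the platelet did not pass the test either. Of 24 listed 16 were measured, 11 lower and 5 higher, where 60.8% of all probes tested were lower. The median was −0.41, with 0 at an adjusted p under 0.05 by limma (0 unadjusted, against 6.57% of all probes). The groups did not overlap for 1 of 16, against 16.3% of all probes tested. This was Cd36, which had a value on 1 2T-WT array only because its spots on the others were left out as outliers. The integrin chains Itga2b and Itgb3 form the fibrinogen receptor. Itga2b differed by 0.05 (adjusted p = 0.987 from limma) and Itgb3 by −1.06 (adjusted p = 0.661 from limma). F2rl3, a thrombin receptor, differed by −1.35 and Rasgrp2, which activates the integrins through Rap1, by −0.56 (adjusted p of 0.682 and 0.824 from limma). P2ry1, P2ry12, Itga2, Cd9, Cd226 and Lcp2 were above background on no array.

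Granule, enzyme and proplatelet genes divided almost evenly. Of 20 listed 17 were measured, 9 lower and 8 higher, where 60.8% of all probes tested were lower. The median was −0.07, with 0 at an adjusted p under 0.05 by limma (1 unadjusted, against 6.57% of all probes). Sparc, a collagen-binding protein of alpha-granules and stroma, read −0.13, −0.93 and −0.52 in 2T-WT and −2.99, −2.46 and −2.80 in 2T-p190-B-/-. It was the 1 gene of 17 whose groups did not overlap, where 16.3% of all probes tested do so. The difference was −2.22 (standard error 0.66, adjusted p = 0.637 from limma). Rab27b, which directs granule release, and Nbeal2, needed to form alpha-granules, were higher by 2.08 and 1.72, both with overlap. Ptgs1, the platelet cyclooxygenase, was higher by 1.94, with its probe above background on 1 2T-WT array and 3 2T-p190-B-/- arrays. F5, coagulation factor V, differed by −0.32. None of these 4 passed (adjusted p of 0.637 for Rab27b, Nbeal2 and Ptgs1 and 0.884 for F5 from limma).

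Genes of other blood lineages that a marrow sort could carry were read beside them. Of red cell precursor markers 6 of 12 were measured, with a mean log2 signal per array of 0.23 to 1.37 in 2T-WT and 0.54 to 1.11 in 2T-p190-B-/-. For neutrophil markers it was 9 of 12, with −0.70 to 0.43 and −0.67 to 0.03. For B lymphocyte markers it was 9 of 10, with −1.56 to 0.80 and −1.87 to −0.88. The highest, on 2T-WT replicate 3, was −0.29 without Cd79a, which read 9.47 there. The median differences of these lists were 0.18, −0.83 and −1.43, with 0 genes at an adjusted p under 0.05 by limma (0 unadjusted). Their part in the values of the megakaryocyte genes was not tested, and in a bulk sort fewer cells of a type and less RNA per cell cannot be told apart.

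**Figure D4:**
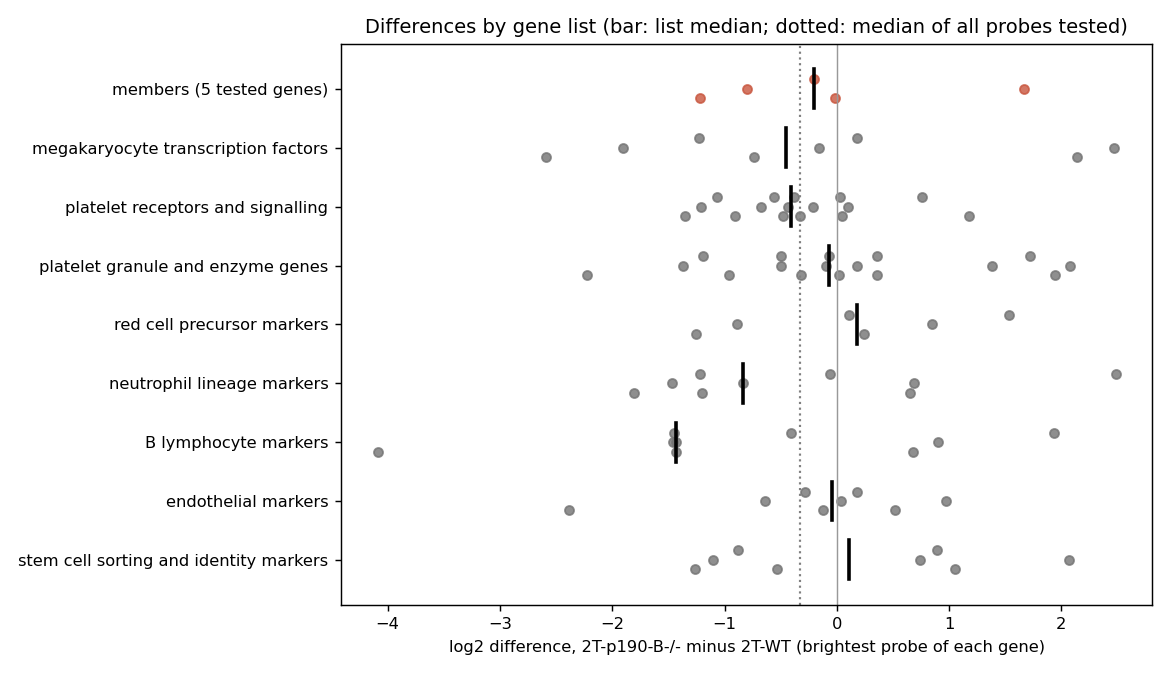
Log2 difference, 2T-p190-B-/- minus 2T-WT (horizontal axis), of each measured gene by list, 1 point per gene at its brightest probe, with the list median as a bar, the median of all probes tested as a dotted line, and the members in red. The 5 member genes run from −1.22 for Clec1b to 1.66 for Treml1, inside the range of the transcription factor list and of the granule, enzyme and proplatelet list.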

How the data were processed

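The authors deposited the scanner output of 6 one-colour (Cy3) Agilent arrays, read with Feature Extraction 10.5.1.1, in which each spot has an intensity on a linear scale, background-subtracted and detrended within the array but not scaled between arrays. Their processed value per spot equals that intensity divided by 1 number per array close to its median. RNA was amplified before labelling, which could change the relation between transcript amount and brightness. Coordinates of probes are mm9, per the file headers.

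Control spots and 296 to 509 outlier spots per array were left out, and 0 spots were saturated. Spots of a probe were averaged. Probes well above background on at least 3 arrays were fitted by genotype alone in limma 3.58.1 (R 4.3.3), and p-values were adjusted by the Benjamini-Hochberg method across the 25188. Probes were named by accession (26412) or gene name (4589) through the RefSeq table of GRCm38.p6, and list genes take their brightest probe. Members were found by the name in the files. Named besides the members are, per megakaryocyte list, the 3 genes of smallest p, the 2 brightest, and Itga2b, Itgb3, Gata1 and Slamf1, except items not reported here; genes above background on no array, and Kit, Ly6a, Cd48, Cd36, Cd79a, Emcn, Cdh5, Flt1 and Sele, were named after their values were seen. Members and lists were chosen with earlier results of these data known. For the folds of Gp1ba and Gp5, the undetected 2T-p190-B-/- values were raised to the dimmest signal called above background on the array, unless brighter. These folds are estimates and not strict bounds. Alternatives were quantile normalization, normexp with an offset of 50, other filters, the authors' processed values, and slide and replicate blocks. An intensity trend, the methods' t-test, the mean over probes and each array left out were also used. Leaving out arrays from detection and from those folds, and Cd79a from its list, was added after seeing the data. The steps were tested on simulated data. The number of arrays limits the precision.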

Additional observations from a re-analysis of the deposited data

How the results depend on the processing

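The count of member probes at an adjusted p under 0.05 by limma was 0 of 8 with all arrays and 0 with each array left out, and 1 by the methods' t-test at a 2-fold or larger difference and an unadjusted p of 0.05 or less (Clec1b A_55_P1962010, −1.22), which takes 1615 of all probes. Probes whose groups did not overlap were 3 of 8, 6 of 14 without a filter on dim probes, where 15.2% of all probes do so, 5 of 8 within slide 2, where only 2 arrays face 2 and 46.3% of all probes do so, and 5 of 8 by sign in all 3 pairs of the replicate block, where 35.9% do. With each array left out they were 3 to 4, where 23.4% to 32.9% do. The median difference of the members, −0.21, was 0.39 with normexp, −1.01 without a filter, −0.87 with the slide as a block and −0.49 to 1.14 with an array left out. The probe of Vwf turned to 1.14 without 2T-WT replicate 2 and 0.32 without 2T-p190-B-/- replicate 2, and Clec1b A_55_P1992617 to 0.47 without 2T-WT replicate 2; with each array left out they ranged from −1.18 to 1.14 and from −1.62 to 0.47. Gp6 turned to 0.39 with normexp, 0.10 with the authors' processed values, 0.10 with the slide as a block, 0.20 without 2T-WT replicate 1 and 0.23 without 2T-p190-B-/- replicate 2, in a range of −0.25 to 0.23. Gp1bb A_55_P2039878 was −0.051 with the slide as a block. Member probes above background only in 2T-WT were 2 to 4 and only in 2T-p190-B-/- 0 to 2 with an array left out, counts chosen after seeing the data. The cause was not tested.

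Treml1, Gp1bb A_51_P151576, Gp1bb A_55_P2039876 and Clec1b A_55_P1962010 kept their sign in all 16 alternatives run for each. Quantile normalization moved the median of all probes by 0.23, the authors' values by 0.12 and normexp by −0.14. Same-numbered arrays correlated at 0.00873 to 0.0863 in their deviations from the group means, and the other pairs at −0.0755 to 0.0677. With 3 arrays a group these values cannot show whether same-numbered arrays share a sort occasion. The replicate block changed no call of a single probe, as 0 of 25188 passed with it or without it. The replicate block gave 0 member probes at an adjusted p under 0.05. For the member genes not tested only an untested fold, or none, is given.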

Other observations

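Vwf is made by endothelial cells too, and of 11 endothelial markers 8 were measured. Differences were below 0 for 4 and above 0 for 4, where 60.8% of all probes tested were below 0. The median log2 difference was −0.04, with 0 at an adjusted p under 0.05 by limma (1 unadjusted, against 6.57% of all probes). Their mean log2 signal per array was −0.56 to −0.40 in 2T-WT and −0.89 to −0.39 in 2T-p190-B-/-. Emcn, an endothelial surface sialomucin, was the 1 marker of 8 whose groups did not overlap, where 16.3% of all probes tested do so. It read −0.87, −0.59 and −2.30 in 2T-WT and −3.35, −3.90 and −3.67 in 2T-p190-B-/-. The probe was above background on 2 2T-WT arrays and 1 2T-p190-B-/- array, and undetected values have no order. Its difference of −2.39 did not pass (adjusted p = 0.637 from limma). Cdh5, Flt1 and Sele were above background on 2 arrays each. The part of endothelial RNA in the values of Vwf was not tested.

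Of 12 genes of stem cell sorting and identity 8 were measured, 4 lower and 4 higher, where 60.8% of all probes tested were lower. The median was 0.10, with 0 at an adjusted p under 0.05 by limma (0 unadjusted, against 6.57% of all probes). Slamf1, Procr and Mycn were above background on no array, and Cd48, whose product the sort excluded, had a probe above it on all 6.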
